A study of Arabidopsis thaliana with 8 samples.

Results

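Early auxin-inducible *Aux/IAA* genes were examined in RNA-Seq libraries of dark-grown *Arabidopsis thaliana* seedlings. The group holds *IAA1* (AT4G14560), *IAA2* (AT3G23030), *IAA3* (AT1G04240), *IAA4* (AT5G43700), *IAA5* (AT1G15580), *IAA6* (AT1G52830), *IAA19* (AT3G15540) and *IAA29* (AT4G32280). These 8 genes were chosen by name, were found in the count table by their locus numbers, and belong to a family of 29 *Aux/IAA* genes among the 33518 loci counted. Every group spent 5 days in darkness on medium with 2 µM propiconazole (PPZ), which blocks the synthesis of brassinosteroids (BRs), before a 4 hr treatment with mock solution or with 100 nM brassinolide (BL), the most active BR. The genotypes were wild type Col-0 and *iaa3*, which carries *iaa3/shy2-2*, a dominant allele whose IAA3 repressor escapes auxin-triggered destruction, so that auxin responses are blocked. Each genotype was sampled with mock and with BL, which gave 4 groups of 2 libraries. Since all plants received PPZ, no group shows the level in seedlings that make their own BR. *IAA3* is itself one of the 8 genes, and the counts do not separate its mutant transcript from a normal one.

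Aux/IAA proteins are short-lived repressors that bind auxin response factors (ARFs) at auxin-responsive promoters. Auxin is held between a TIR1/AFB receptor and a short degron in the Aux/IAA protein, which leads to the destruction of the repressor and frees the ARF. Many *Aux/IAA* genes are themselves switched on by ARFs within minutes of auxin treatment, so the family forms a negative feedback loop and its transcripts are widely read as a sign of auxin response. BR and auxin both promote hypocotyl elongation in the dark.

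A stretch coding for the degron core was found in 8 of the 8 genes and in 15 of the 21 other *Aux/IAA* genes. It is shown here because dominant *shy2* alleles change this core. In each line below, 13 codons of the RefSeq reference (TAIR10.1) are given 5′ to 3′ on the coding strand, with the 5 codons of the core in capitals. The *IAA3* stretch lies in exon 2 on the minus strand at chr1:1129010-1129048, that of *IAA4* in exon 2 on the plus strand at chr5:17550740-17550778, that of *IAA19* in exon 1 on the plus strand at chr3:5264307-5264345, and that of *IAA29* in exon 2 on the plus strand at chr4:15583942-15583980.
IAA3: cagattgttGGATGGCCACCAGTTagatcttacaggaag
IAA4: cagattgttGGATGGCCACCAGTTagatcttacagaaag
IAA19: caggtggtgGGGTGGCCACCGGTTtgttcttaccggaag
IAA29: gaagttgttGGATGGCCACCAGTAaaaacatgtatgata
*IAA3* and *IAA4* differed at 1 of these 39 bases and at 0 of the 15 core bases. *IAA19* differed from *IAA3* at 8 bases and *IAA29* from *IAA3* at 12. Proteins translated from the reference were aligned in pairs, and identity was counted over the aligned residues only. In some pairs each protein was the other's closest match among the 8. These were IAA3 and IAA4 with 81.6% identity, IAA1 and IAA2 with 79.5%, and IAA6 and IAA19 with 66.1%, over 166 to 183 residues. IAA5 was closest to IAA19 with 64.3%. IAA29 was the most distant, with 50.9% identity to IAA2 over only 106 aligned residues of its 199. How the authors treated reads that match several loci is not given in the sources used here, so counts of such pairs carry that uncertainty.

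The region upstream of the genes was read for 4 elements that bear on auxin and BR control, on both strands. These were the canonical auxin response element (AuxRE, TGTCTC), a second auxin element (TGTCGG), the G-box (CACGTG) and the HUD element (CACATG, which reads CATGTG on the other strand). AuxREs are bound by ARFs, and the G-box and HUD are bound by PIF factors. Within 1000 bases of the annotated gene start, TGTCTC was present at 7 of the 8 genes and at 39.6% of 27443 protein-coding genes, and CACATG at 7 of the 8 and at 37.7%. TGTCGG was present at 3 of the 8 and 14.6% of all, and CACGTG at 3 of the 8 and 14.8% of all. Within 250 bases, TGTCTC was found at 4 of the 8 genes against 10.9% of all, CACATG at 4 against 11.1%, TGTCGG at 2 against 4.16% and CACGTG at 1 against 6.49%. These matches are letters in a window and were not tested as binding sites.

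The upstream regions of *IAA6* and *IAA19* share a block in which a TGTCTC and a CATGTG are 1 base apart. The block is printed because these were the genes with the highest fitted rises in BL among those with reads above the detection limit in both wild type groups. Here 40 bases are given 5′ to 3′ along each gene, with the matches in capitals, from TAIR10.1 chr1:19673794-19673833 on the minus strand for *IAA6* and chr3:5263815-5263854 on the plus strand for *IAA19*.
IAA6: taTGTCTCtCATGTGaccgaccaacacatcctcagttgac
IAA19: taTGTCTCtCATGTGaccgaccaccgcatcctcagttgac
The blocks start 181 bases before the *IAA6* gene and 186 bases before the *IAA19* gene, and 38 of the 40 bases are identical. Their first 23 bases are the same in both genes and occur upstream of 2 of the 27443 genes searched, which are these 2. *IAA3* and *IAA4* share another stretch, of 18 bases, that holds TGTCTC on the minus strand at 2 places, and it too occurs upstream of 2 of the 27443 genes. It begins 396 bases before *IAA3* (minus strand, chr1:1130068-1130085) and 525 bases before *IAA4* (plus strand, chr5:17549654-17549671).
IAA3 and IAA4: tagagacagagagacaaa

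The last 250 bases before *IAA19* and *IAA29* are given in full, because BL moved these genes in opposite directions in wild type. The windows are chr3:5263751-5264000 and chr4:15583082-15583331 of TAIR10.1, both on the plus strand, with matches to the 4 elements in capitals.
IAA19: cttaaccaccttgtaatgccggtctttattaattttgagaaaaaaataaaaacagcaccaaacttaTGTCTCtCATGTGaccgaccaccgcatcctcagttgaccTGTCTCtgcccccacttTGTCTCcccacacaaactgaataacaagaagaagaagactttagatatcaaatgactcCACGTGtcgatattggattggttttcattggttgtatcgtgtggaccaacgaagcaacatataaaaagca
IAA29: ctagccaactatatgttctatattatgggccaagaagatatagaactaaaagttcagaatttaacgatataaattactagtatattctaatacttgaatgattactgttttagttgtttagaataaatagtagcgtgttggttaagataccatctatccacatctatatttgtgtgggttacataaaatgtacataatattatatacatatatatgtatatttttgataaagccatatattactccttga
In the *IAA19* window TGTCTC begins 184, 145 and 128 bases before the gene, CATGTG begins 177 bases before it and the G-box 70 bases before it. The *IAA29* window holds 0 matches to the 4 elements, and in the 1000 bases upstream of *IAA29* the single match was a TGTCGG at 572 bases. The last 250 bases before *IAA2*, which was not called for BL in wild type, also hold 0 matches. There *IAA3* and *IAA4*, which rose with BL, have 0 TGTCTC and 0 TGTCGG, and *IAA1*, which did not rise, has 1 of each. A link between these matches and the BL response was not tested.

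**Figure D1:**
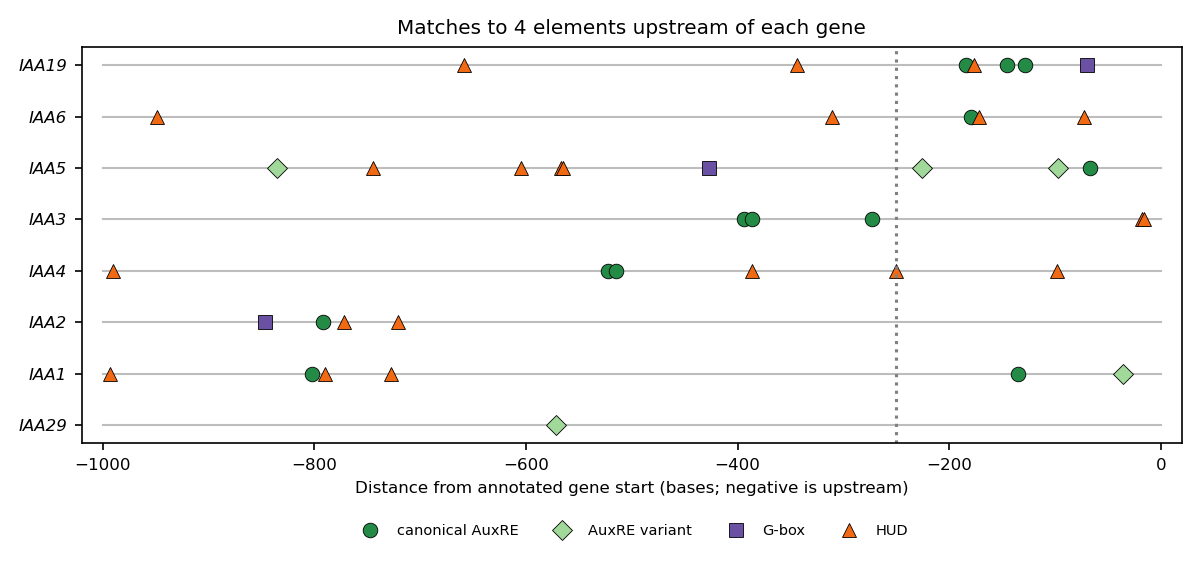
Matches to the canonical AuxRE (TGTCTC), the AuxRE variant (TGTCGG), the G-box (CACGTG) and HUD (CACATG) in the 1000 bases upstream of each gene, on either strand; the x axis is the distance in bases from the annotated gene start and the dotted line marks 250 bases. *IAA19* and *IAA6* each have an AuxRE beside a HUD at about the same distance, and *IAA29* has 1 match in all.

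The libraries held between 18107519 and 23183988 counts, and 20415 loci had enough counts to be tested. Levels are given as CPM, which are counts scaled to a common library size, here with TMM factors of 0.948 to 1.08. Differences are given as fitted log2 fold changes from edgeR's quasi-likelihood test. Standard errors (SE) were worked back from that test, as the absolute log2 fold change divided by the square root of its F value. They are approximate. Calls needed a 1.5-fold change or more together with an unadjusted p under 0.01, and the p-values printed are Benjamini-Hochberg adjusted over all 20415 loci. The labels do not say that the 2 libraries of a group came from separate cultures, so the p-values measure the spread between these libraries. PORA and PORB, the light-dependent protochlorophyllide reductases of etiolated tissue, summed to between 2113 and 2742 CPM in the 8 libraries. PORA was called 1.75-fold higher with BL in wild type and 2.19-fold lower in *iaa3* BL than in wild type BL. PORB was called in neither comparison. The light-grown photosynthesis markers LHCB1.1, LHCB2.2, RBCS1A and RBCS3B summed to between 2772 and 3629 CPM, so these sums do not set etiolated apart from light-grown tissue. Most of the second sum was RBCS1A, at 2052 to 2515 CPM, while LHCB1.1 stood at 4.48 to 19.9 CPM and LHCB2.2 at 51.6 to 108 CPM. Of *DWF4*, *CPD* and *BR6OX2*, BR biosynthesis genes that BR represses, 3 of 3 were called lower with BL in both genotypes. The libraries came from whole seedlings, in which fewer cells that express a gene and less RNA per cell cannot be told apart.

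BL changed 6 of the 8 genes in wild type, and the change ran in both directions. *IAA3*, *IAA4*, *IAA5*, *IAA6* and *IAA19* rose and *IAA29* fell, while *IAA1* and *IAA2* did not pass the test. Over all tested loci, 8.45% were called higher and 5.87% lower in the same comparison. The median log2 fold change of the 8 genes was 1.04, with *IAA5* taken at its lower bound, and that of all tested loci was -0.00971. *IAA5* and *IAA6* had enough counts to be tested only because of wild type BL. Their places among the called genes and in the median are therefore given as values and not as support for the count. For the same reason the median is not read against that of all tested loci.

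*IAA19*, mutated in the tropism mutant *msg2*, had the largest rise in BL among the genes with at least 10 counts in every library. In wild type it stood at 10.9 and 11.6 CPM in the mock libraries and at 106 and 98.7 CPM with BL. In *iaa3* it stood at 3.40 and 2.68 CPM in mock and at 4.08 and 2.74 CPM with BL. The wild type BL libraries were high, the wild type mock libraries were intermediate, and all *iaa3* libraries were low with no gap between mock and BL. The rise in wild type was 9.09-fold (log2 fold change 3.18, SE 0.111, edgeR adjusted p = 1e-08), and in *iaa3* the log2 fold change was 0.15 (SE 0.196, adjusted p = 0.66). The difference between these responses was -3.04 on the log2 scale (SE 0.228, edgeR interaction test, adjusted p = 1.07e-05).

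*IAA6*, the gene altered in the *shy1* mutant and closest to *IAA19* in sequence, was nearly silent without BL. Wild type had 4 and 6 counts in mock and 208 and 216 with BL, and each of the 4 *iaa3* libraries had 0. A count of 3, the limit that a count of 0 allows, corresponds to between 0.12 and 0.172 CPM across the libraries and covers counting error only. The rise in wild type was 43.6-fold (log2 fold change 5.45, SE 0.268, edgeR adjusted p = 8.43e-07), measured against the 10 reads of the mock libraries. With BL the level was at least 59-fold lower in *iaa3*, a bound set by 3 counts in each *iaa3* library. In *iaa3*, where both groups were at that limit, no fold change is given.

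*IAA5* followed the same order at a lower level. Wild type had 1 and 1 counts in mock and 13 and 14 with BL, while *iaa3* had 0 and 0 in mock and 0 and 1 with BL. It was at least 4.72-fold higher with BL in wild type (edgeR adjusted p = 0.00277), and BL-treated *iaa3* stood at least 3.75-fold below BL-treated wild type (edgeR adjusted p = 0.00182). DESeq2 called neither difference for this gene (unadjusted p = 0.0152 and 0.0157). In the reference annotation 48 bases of *IAA5* lie under AT1G15570 on the other strand, which had 151 to 193 counts in wild type and 51 to 74 in *iaa3*. Whether the counting used strand is not given in the sources used here, so reads in that overlap cannot be told apart.

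*IAA3*, the gene mutated in *iaa3*, rose with BL in wild type and was low in the mutant. In wild type it stood at 45.22 and 44.98 CPM in mock and at 129 and 121 CPM with BL. In *iaa3* it stood at 13.7 and 11.1 CPM in mock and at 11.4 and 12.9 CPM with BL. The wild type groups lay apart, and the *iaa3* mock and BL libraries overlapped. The rise in wild type was 2.76-fold (log2 fold change 1.47, SE 0.087, edgeR adjusted p = 4.38e-07), and in *iaa3* the log2 fold change was -0.03 (SE 0.113, adjusted p = 0.91). The responses differed by -1.49 (SE 0.142, edgeR interaction test, adjusted p = 5.56e-05). In the reference annotation, AT1G04230 overlaps *IAA3* by 640 bases on the other strand. Its counts lay between 225 and 278 in all 8 libraries, while *IAA3* had 198 to 306 counts in the *iaa3* libraries. Since the use of strand in the counting is not given, reads in the overlap cannot be told apart. Their part in the low *iaa3* values was not tested.

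*IAA4*, closest to *IAA3* in sequence, rose with BL in wild type and had a negative value in *iaa3*. Wild type stood at 189 and 185 CPM in mock and at 283 and 290 CPM with BL. The mutant stood at 129 and 124 CPM in mock and at 99.4 and 87.3 CPM with BL. None of the 4 groups overlapped. BL raised it 1.53-fold in wild type (log2 fold change 0.61, SE 0.0731, edgeR adjusted p = 8.54e-05), a rise that scaling by library size alone brought to 0.51 and below the 1.5-fold limit. In *iaa3* the log2 fold change was -0.44 (SE 0.0749, edgeR adjusted p = 0.00252), which is 1.35-fold and short of the 1.5-fold limit. The responses differed by -1.05 (SE 0.105, edgeR interaction test, adjusted p = 7.43e-05).

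*IAA2*, whose promoter is widely used as an auxin reporter, had the highest level of the 8 genes and did not pass the test for BL in wild type. Wild type stood at 296 and 280 CPM in mock and at 316 and 307 CPM with BL, groups that lay close together. The mutant stood at 144 and 136 CPM in mock and at 100 and 92.6 CPM with BL, which did not overlap. In wild type the log2 fold change was 0.12 (SE 0.0697, edgeR adjusted p = 0.238). In *iaa3* it was -0.54 (SE 0.0718, edgeR adjusted p = 0.000537), which is 1.45-fold and was not called, although it was called at -0.59 without the first *iaa3* BL library. The responses differed by -0.65 (SE 0.1, edgeR interaction test, adjusted p = 0.00135).

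*IAA1*, the gene altered in *axr5*, and *IAA29* showed the other pattern, with no rise in BL. In wild type *IAA1* stood at 22.8 and 23.4 CPM in mock and at 18.6 and 16.5 CPM with BL. In *iaa3* it stood at 1.34 and 1.95 CPM in mock and at 1.205 and 2.34 CPM with BL. Its log2 fold change with BL was -0.40 in wild type (SE 0.144, edgeR adjusted p = 0.0576) and 0.14 in *iaa3* (SE 0.296, edgeR adjusted p = 0.806), where the groups overlapped. *IAA1* and *IAA2* are each other's closest relatives among the 8 genes, and neither was called for BL in wild type.

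*IAA29* was the only one of the 8 called lower with BL in wild type. Wild type stood at 17.1 and 17.7 CPM in mock and at 7.57 and 6.75 CPM with BL. The mutant stood at 1.21 and 1.68 CPM in mock and at 0.976 and 0.598 CPM with BL. The 4 groups did not overlap. It fell 2.43-fold in wild type (log2 fold change -1.28, SE 0.138, edgeR adjusted p = 4.01e-05). In *iaa3* its log2 fold change was -0.89 (SE 0.294, edgeR adjusted p = 0.0597) and was not called, but it was called at -1.11 without the first *iaa3* mock library and at -1.26 without the first *iaa3* BL library. The interaction test gave 0.39 for *IAA29* (SE 0.339, edgeR adjusted p = 0.474) and 0.53 for *IAA1* (SE 0.33, edgeR adjusted p = 0.306), so neither response was shown to differ between the genotypes.

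**Figure D2:**
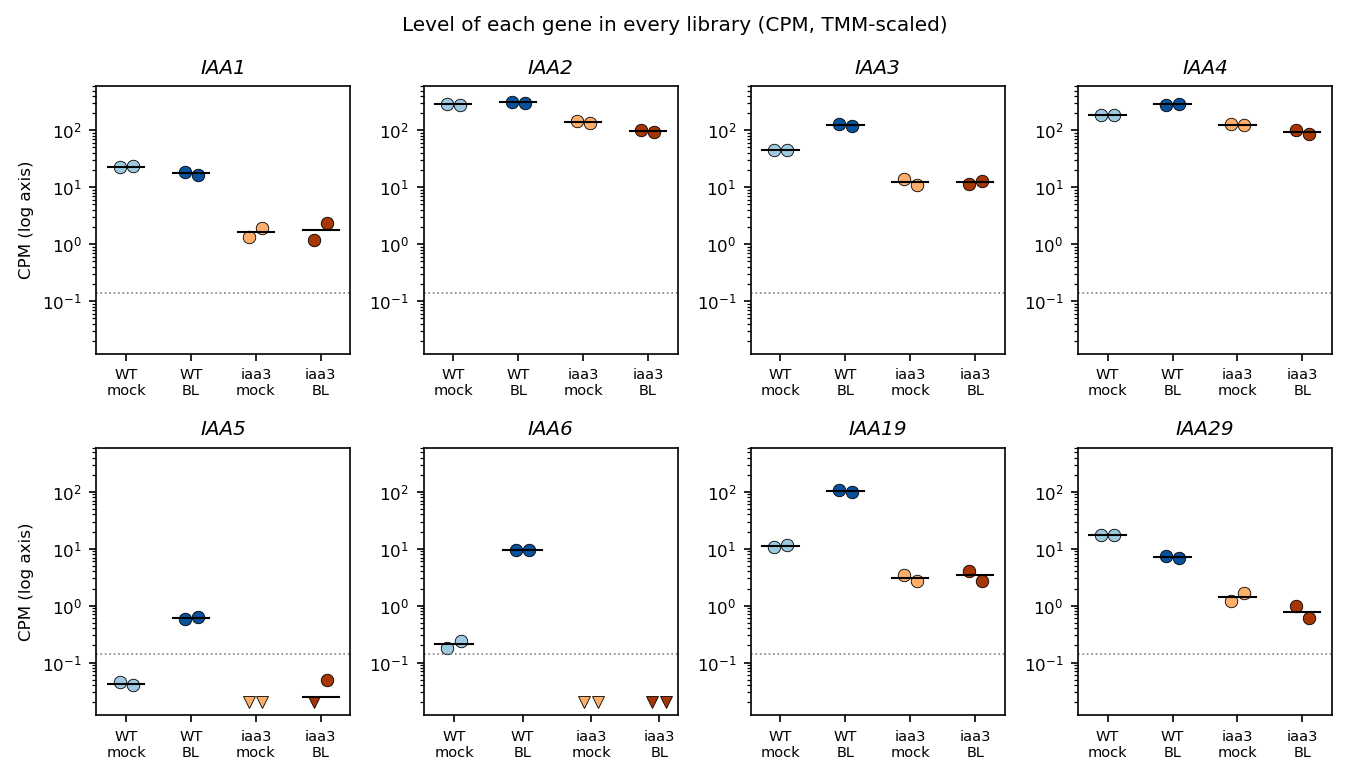
CPM (log axis) of each gene in the 2 libraries of each group, with the group mean as a bar; downward triangles mark libraries with 0 counts, drawn at an arbitrary height, and the dotted line is the mean CPM of 3 counts. *IAA19* stands at 106 and 98.7 CPM in wild type BL and at 2.68 to 4.08 CPM in the 4 *iaa3* libraries, and *IAA6* is at 0 counts in every *iaa3* library.

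In *iaa3*, edgeR called 0 of the 8 genes for BL, and DESeq2 also called 0. *IAA5* and *IAA6* were at the detection limit in both *iaa3* groups, so no change could be measured in them. Of all tested loci, 8.15% were called in either direction. With 6 genes left, a count of 0 is not set apart from that share. At an unadjusted p under 0.05, 0 genes were higher and 3 were lower, which were *IAA2*, *IAA4* and *IAA29*. The median log2 fold change of the 6 genes with a value was -0.231, and that of all tested loci was 0.0065. The count rose to 1, which was *IAA29*, without the first *iaa3* mock library, and to 2, with *IAA2*, without the first *iaa3* BL library.

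**Figure D3:**
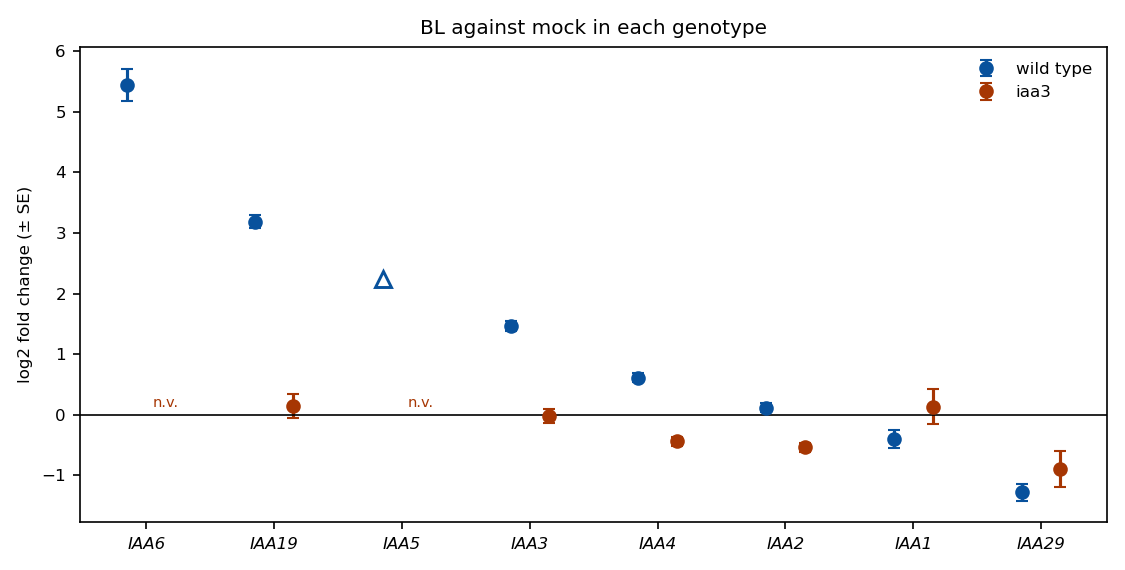
Fitted log2 fold change of BL against mock (± SE, 2 libraries per group) for each gene in wild type (blue) and *iaa3* (brown); the open triangle is a lower bound and n.v. means that both groups were at the detection limit. Wild type values run from 5.45 for *IAA6* to -1.28 for *IAA29*, and *iaa3* values from 0.15 for *IAA19* to -0.89 for *IAA29*.

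The difference in BL response between the genotypes was called for 4 of the 8 genes (*IAA2*, *IAA3*, *IAA4* and *IAA19*), each with a smaller or more negative response in *iaa3*. Of all tested loci, 9.95% were called in this direction at an adjusted p under 0.05. For *IAA19*, the 4 ratios between a BL library and a mock library ran from 3.09 to 3.28 on the log2 scale in wild type and from -0.31 to 0.61 in *iaa3*. For *IAA3* they ran from 1.41 to 1.52 in wild type and from -0.27 to 0.22 in *iaa3*. The interaction could not be estimated for *IAA5* and *IAA6*, which were at the detection limit in both *iaa3* groups.

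Without BL, 6 of the 8 genes were called lower in *iaa3* seedlings than in wild type. Of all tested loci, 9.48% were called lower. *IAA6*, which is among the 6, and *IAA5* were tested only because of their counts in wild type BL. The count is therefore not read against that share. The falls were uneven. *IAA1* was 14-fold lower (log2 fold change -3.81, SE 0.2, edgeR adjusted p = 4.1e-07) and *IAA29* 12-fold lower (-3.59, SE 0.175, adjusted p = 2.72e-07), the 2 largest falls measured. *IAA19* was 3.69-fold lower (-1.88, SE 0.154, adjusted p = 7.97e-06) and *IAA3* 3.64-fold lower (-1.86, SE 0.0997, adjusted p = 4.51e-07). *IAA2* was 2.06-fold lower (-1.04, SE 0.0709, edgeR adjusted p = 2.34e-06). *IAA4* stood 1.48-fold lower (-0.57, SE 0.0738, edgeR adjusted p = 0.000166), just short of the fold limit, and was called at -0.59 without the first *iaa3* mock library and at -0.69 when scaled by library size alone. *IAA6* was at least 1.56-fold lower (edgeR adjusted p = 0.007), and *IAA5* was at the limit in both groups.

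After BL treatment, 8 of the 8 genes were called lower in the mutant, and DESeq2 called 7. Of all tested loci, 13.8% were called lower. *IAA5* and *IAA6* were tested only because of their counts in wild type BL, so their calls here followed from the filter, and the count is not read against that share. Among genes with reads in both groups, *IAA19* had the largest difference, 30.3-fold (log2 fold change -4.92, SE 0.135, edgeR adjusted p = 2.18e-09), followed by *IAA3* with 10.2-fold (-3.36, SE 0.101, adjusted p = 3.35e-09). *IAA1* and *IAA29* were 9.68-fold and 9.18-fold lower, and *IAA2* and *IAA4* were 3.24-fold and 3.07-fold lower. The median log2 fold change was -1.86 over 7 genes in mock and -3.24 over 8 genes with BL, with genes at the detection limit taken at their bounds, and the medians of all tested loci were -0.0118 and -0.00267. *IAA6* enters both medians of these genes and *IAA5* the second, so neither is read against that of all tested loci.

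**Figure D4:**
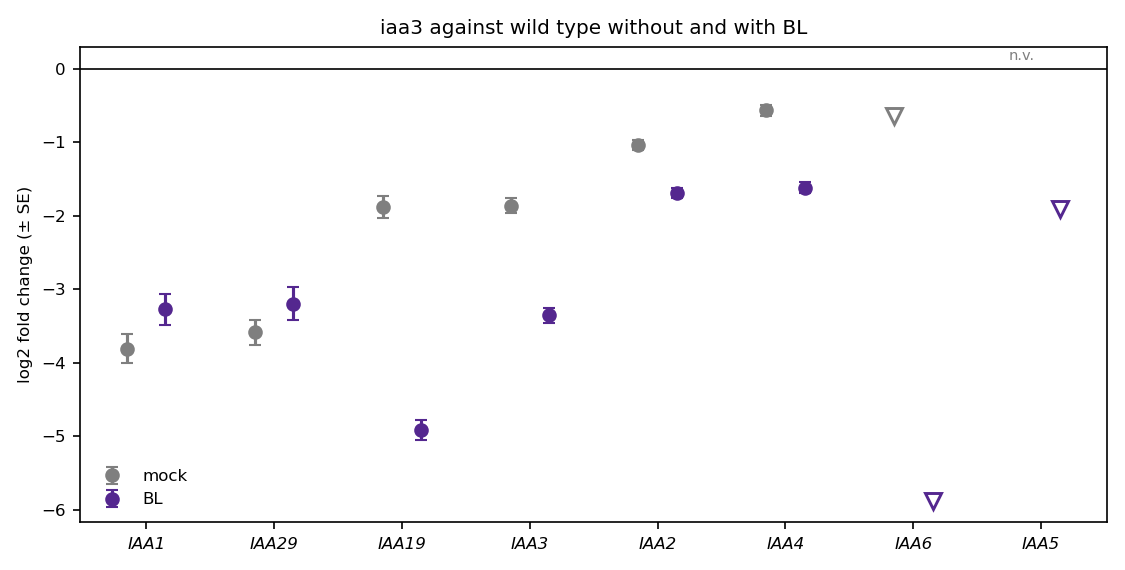
Fitted log2 fold change of *iaa3* against wild type (± SE, 2 libraries per group) in mock (grey) and with BL (purple); open triangles are bounds, which the true fall may exceed, and n.v. means that both groups were at the detection limit. The *IAA19* value moves from -1.88 in mock to -4.92 with BL, and the *IAA1* value from -3.81 to -3.28.

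Levels of different genes were compared as CPM per kilobase of exon. In wild type mock the order was *IAA2* (212), *IAA4* (138), *IAA3* (33.3), *IAA1* (24.4), *IAA29* (13.6), *IAA19* (11.1), *IAA6* (0.245) and *IAA5* (0.0546), and no neighbours in this order overlapped between libraries. In wild type BL *IAA19* was the third at 101, above *IAA3* at 92.0, and *IAA6* (11.1) stood above *IAA29* (5.58). The order of *IAA19* and *IAA3* depends on the exon lengths used, since in CPM *IAA3* (124.6) stood above *IAA19* (102.2). In *iaa3* BL, *IAA2* (70.9) and *IAA4* (68.8) overlapped, and *IAA5* and *IAA6* were at or near 0. *IAA2* and *IAA4* were the 2 most abundant of these transcripts in all 4 groups.

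The summed level of the 8 genes in wild type was 581 and 563 CPM in mock and 869 and 850 CPM with BL. In *iaa3* it was 292 and 277 CPM in mock and 217 and 199 CPM with BL. The groups did not overlap, and BL went with a higher sum in wild type and a lower one in *iaa3*. As a share of all *Aux/IAA* reads, in CPM, they made up 25.6% in both wild type mock libraries and 32.9% and 32.7% with BL. The mutant libraries gave 19.9% and 18.8% in mock and 18.3% and 16.9% with BL. Within the 8, *IAA19* supplied 1.87% and 2.05% of the CPM in wild type mock and 12.2% and 11.6% in wild type BL. The share of *IAA2* went from 50.9% and 49.7% to 36.3% and 36.2%.

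*IAA1*, *IAA2* and *IAA3* each lie beside another *Aux/IAA* gene on the chromosome, and these neighbours resembled them to different degrees. *IAA14*, altered in *solitary-root* and adjacent to *IAA1*, stood at 16.6 and 14.8 CPM in wild type mock and 31.6 and 31.9 CPM in wild type BL, and was called higher (log2 fold change 1.02, SE 0.0841, edgeR adjusted p = 5.14e-06) where *IAA1* was not. In *iaa3* mock *IAA14* stood at 12.7 and 13.3 CPM and was not called lower (-0.27, SE 0.0903, edgeR adjusted p = 0.0381), whereas *IAA1* was 14-fold lower. *IAA7*, altered in *axr2*, behaved more like its neighbour *IAA2*, with a log2 fold change in BL of -0.02 in wild type (SE 0.0609, edgeR adjusted p = 0.822) and of -0.90 in *iaa3* (SE 0.0639, edgeR adjusted p = 7.77e-06). *IAA17*, altered in *axr3* and adjacent to *IAA3*, was called higher with BL in wild type (0.93, SE 0.0794, edgeR adjusted p = 6.86e-06) and lower in *iaa3* mock (-2.41, SE 0.0901, edgeR adjusted p = 7.4e-08), in the directions of *IAA3*. Of the 160 tested genes that lie within 10 places of one of the 8, 9 (5.62%) were called lower and 16 higher in *iaa3* mock. With BL, 24 (15%) were called lower and 18 higher. Of all tested loci, 9.48% were called lower in mock and 13.8% with BL, so the share of lower neighbours with BL was close to that of all loci. The neighbours include *IAA14*, *IAA7* and *IAA17*, each called lower in *iaa3* with BL. Counts around single genes differed, and their spread was not tested. Among the 20 genes around *IAA1*, 7 were lower, with *IAA14* among them, and 2 higher with BL, with a median of -0.335 on the log2 scale. In mock, 1 of them was lower and 1 higher. Around *IAA19*, 0 of 20 were lower and 2 higher with BL. Each of the remaining genes had 2 to 4 lower neighbours with BL.

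Other genes of the pathway were counted in the same way. Of 18 other *Aux/IAA* genes tested out of 21, 4 were called higher and 1 lower with BL in wild type, and 0 higher and 5 lower with BL in *iaa3*. Of all tested loci, 8.45% were called higher and 5.87% lower in wild type, and 8.15% in either direction in *iaa3*. At an unadjusted p under 0.05 the counts with BL in *iaa3* were 1 and 8, and DESeq2 called 0 and 5. In *iaa3* against wild type, 2 were called higher and 6 lower in mock, and 2 higher and 9 lower with BL. The shares of all tested loci called lower were 9.48% in mock and 13.8% with BL. No share is given for calls higher in *iaa3*, so those counts are not read further. The response differed between genotypes for 9 of the 18 (*IAA7*, *IAA8*, *IAA9*, *IAA14*, *IAA17*, *IAA20*, *IAA26*, *IAA30* and *IAA34*), each with a smaller or more negative response in *iaa3*, as for *IAA2*, *IAA3*, *IAA4* and *IAA19*. Of all tested loci, 9.95% were called in this direction.

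Of the 6 *TIR1/AFB* receptor genes, edgeR and DESeq2 called 0 for BL in either genotype, and in wild type 3 were higher and 0 lower at an unadjusted p under 0.05. In *iaa3* against wild type, 1 of the 6 was called lower in mock and 1 with BL. Of all tested loci, 9.48% were called lower in mock and 13.8% with BL, so these receptor counts are not read as a result. Of the 5 genes for activating ARFs, 3 were called lower with BL in wild type and 2 in *iaa3*. Among all tested loci, BL gave 8.45% called higher and 5.87% lower in wild type, and 8.15% in either direction in *iaa3*. With BL, 2 of these *ARF* genes were called higher in *iaa3*.

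**Figure D5:**
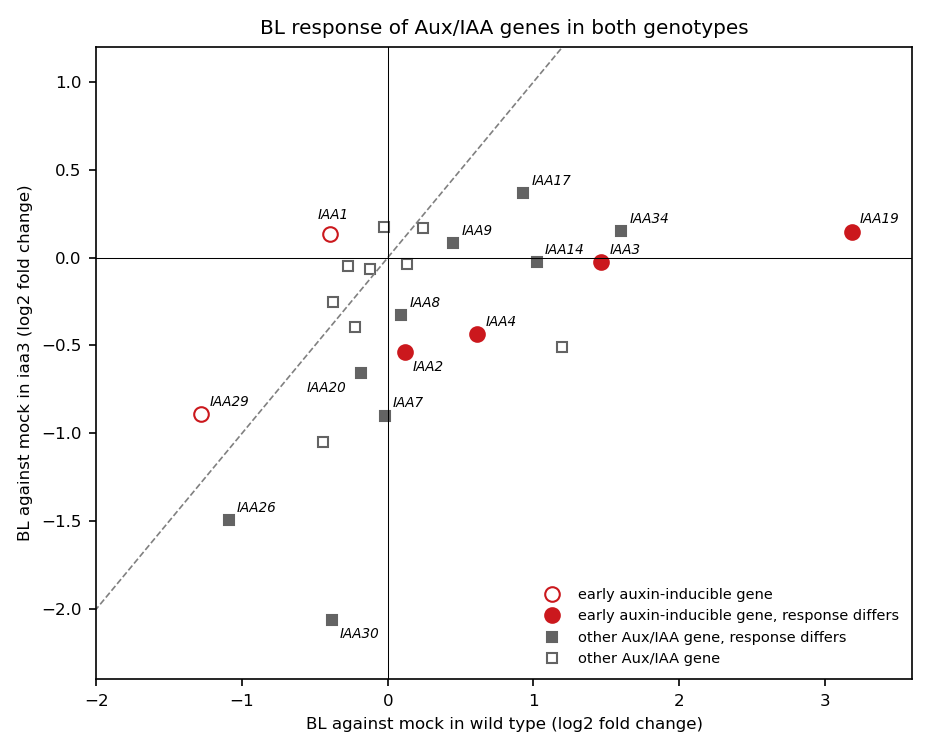
Fitted log2 fold change of BL against mock in wild type (x axis) and in *iaa3* (y axis) for *Aux/IAA* genes above the detection limit in all groups; red circles are the early auxin-inducible genes, grey squares the other family members, filled symbols those whose response differed (interaction, adjusted p under 0.05), and the dashed line marks equal responses. *IAA19* lies farthest to the right, at 3.18 and 0.15, and *IAA29* lies at -1.28 and -0.89.

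Some libraries stood apart in stress and seed storage genes. Of heat shock genes 6 of 6, and of hypoxia genes 8 of 8, were called higher in *iaa3* BL than in wild type BL. The summed heat shock level was 669 to 778 CPM in *iaa3* BL and 109 to 201 CPM in the other 3 groups, and the summed hypoxia level was 5362 to 5766 CPM in *iaa3* BL, 1412 to 2404 in *iaa3* mock, 294 to 1201 in wild type mock and 283 to 334 in wild type BL. In mock, the summed heat shock level was 111 to 119 CPM in *iaa3* and 185 to 201 CPM in wild type. The summed level of the seed storage genes was 114 to 829 CPM in wild type mock, 261 to 370 in wild type BL, 2.996 to 6.66 in *iaa3* mock and 32.1 to 219 in *iaa3* BL, and 2 of the 6 tested were called lower in *iaa3* mock than in wild type mock. The 2 wild type mock libraries stood apart from each other in the hypoxia and seed storage sums. Among those of the 8 genes with at least 10 counts in each, their largest difference was 1.06-fold. Some other *Aux/IAA* genes lay further apart in these 2 libraries, such as *IAA30* at 1.95 and 1.515 CPM. The part of the heat shock, hypoxia and seed storage signals in the *Aux/IAA* values was not tested.

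The libraries of a group agreed closely for these genes in wild type and less so in *iaa3*. The largest difference between 2 libraries of a group, over genes with at least 10 counts in each, was 1.06-fold in wild type mock, 1.13-fold in wild type BL, 1.46-fold in *iaa3* mock and 1.94-fold in *iaa3* BL. The last was *IAA1*, with 21 and 47 counts. Genes with few counts in *iaa3* (*IAA1*, *IAA29* and *IAA19*) therefore have the widest errors there.

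Among 13022 well-expressed genes, the patterns most like those of the 8 genes over the 8 libraries were noted as a description, by Pearson's r of log2 CPM. The points share libraries, depth and 4 groups. Outside wild type BL, *IAA5* had 0 or 1 counts, and *IAA6* had 4 and 6 in wild type mock and 0 in *iaa3*. With a prior count of 2, r values of these genes mainly set wild type BL against values near the floor. *IAA19* was closest to *AGP24*, which codes for an arabinogalactan protein (r = 0.9988), *IAA6* to the aquaporin gene *PIP1B* (r = 0.9977), and *IAA3* to *QUL2* (r = 0.9981). *IAA1* was closest to *MRH1*, a receptor-like kinase gene named for root hair morphogenesis (r = 0.9977), and *IAA2* to *IAA7* (r = 0.9957). *IAA4* was closest to *P1R3* (r = 0.9969), *IAA5* to *SQN* (r = 0.9949) and *IAA29* to AT3G05727 (r = 0.9949). The next closest were *AS1* for *IAA1* (r = 0.9957), *APS4* for *IAA2* (r = 0.9953), *LUP1* for *IAA3* (r = 0.9962) and *RTFL21* for *IAA4* (r = 0.9963). For *IAA5* it was *AGP12* (r = 0.9938), for *IAA6* *NPSN12* (r = 0.997), for *IAA19* AT3G07210 (r = 0.9972) and for *IAA29* AT1G70950 (r = 0.993). Among the 8 themselves, *IAA6* and *IAA19* were the most alike (r = 0.99), and *IAA29* and *IAA5* the least (r = 0.425).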

How the data were processed

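RNA-Seq libraries of 4 groups, with 2 libraries each, were grouped by the sample labels. The authors deposited raw read counts per locus without normalization. The submitters' processing notes name CASAVA, TopHat, HTSeq and the TAIR9 build. Settings for strand and for reads matching several loci are not given in the sources used here. The 8 genes, the other lists and the tests were chosen with earlier results of these data known.

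Differential expression was fitted by edgeR 4.0.16 in R 4.3.3, using filterByExpr by group, TMM factors and a quasi-likelihood model of all 8 libraries in which every group had its own coefficient. Pairwise differences were called at 1.5-fold and an unadjusted p under 0.01, the interaction at an adjusted p under 0.05. Where a group had at most 3 counts in every library, a bound against the CPM of 3 counts is given, or no fold if both groups did. Single-library ratios were taken from CPM without a prior count. The log2 CPM behind the correlations used a prior count of 2. The steps were tested on simulated data. Named besides the 8 genes were 3 adjacent *Aux/IAA* genes, list genes called in the interaction and, per gene, the 2 most similar genes of at least 3 mean log2 CPM. Overlapping genes were named after their counts were seen.

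Alternatives were DESeq2 1.42.0, scaling by RLE factors or by library size alone, testing every locus or those with 10 counts in all libraries, fitting the compared groups by themselves, a robust fit, calls by adjusted p or at 2-fold, a replicate block, and leaving out each library. Sequences, gene starts and exon lengths came from RefSeq TAIR10.1, read with Python 3.11.15 and Biopython 1.88, and were joined to the counts by locus number only.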

Additional observations from a re-analysis of the deposited data

Results flagged for a closer look

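The response to BL differed between wild type and *iaa3*, by edgeR's interaction test, for 4 of the 8 genes. The difference, *iaa3* minus wild type on the log2 scale, was -0.65 for *IAA2*, -1.49 for *IAA3*, -1.05 for *IAA4* and -3.04 for *IAA19*. For *IAA3* and *IAA19* it went with a rise in wild type and a value near 0 in *iaa3*, for *IAA4* with a rise in wild type and a lower level in *iaa3* that missed the fold limit, and for *IAA2* with a value near 0 in wild type and a lower level in *iaa3* that also missed it. With 2 libraries per group, single libraries that stand apart within a group were not searched for.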

How the results depend on the processing

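For BL in *iaa3*, where 0 of the 8 genes were called, the count was 1 with library size alone, 1 with no filter and 1 with the robust fit, in each case *IAA29*, and it ranged from 0 to 2 when each library was left out. The counts for the other comparisons stayed within 1.5 times of those reported under every alternative. They ranged from 6 to 6 for BL in wild type, from 6 to 7 for *iaa3* against wild type in mock, from 8 to 8 with BL and from 4 to 4 for the interaction when each library was left out. Of 489 single-gene values under the alternatives, 473 kept their direction and their call, 8 were called only under the alternative, 1 lost its call and 7 changed sign. None of those that changed sign was called, and each did so when a single *iaa3* library was left out. Over the libraries left out, BL in *iaa3* ranged from -0.45 to 0.51 for *IAA1*, from -0.17 to 0.13 for *IAA3* and from -0.15 to 0.42 for *IAA19*, and the interaction of *IAA1* from -0.049 to 0.91. Groups share replicate numbers in the labels, but the deviations of same-numbered libraries correlated between -0.0627 and 0.237, so the numbers were not taken as pairs. A fit with the replicate block gave 6, 0, 6, 8 and 4 called genes, as without it. *IAA5* was not called by DESeq2, and *IAA5* and *IAA6* were not tested when 10 counts were required in every library. Depth limits both genes in *iaa3*, where changes below 3 counts were not detectable.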
